A study of Mus musculus with 27 samples.

Results

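Arid1a knockout (KO) was compared with Arid2 KO in mouse thyroid tumor cell lines cultured with vehicle. The comparison takes the 3 vehicle libraries labelled Arid1a KO and the 3 vehicle libraries labelled Arid2 KO, 6 of the 27 libraries of the study, chosen by their column names in the table of raw counts. Every one of these lines also carries the Braf(V600E) allele, so both genotypes are set on the same oncogenic background and differ in which SWI/SNF subunit was removed. The Arid1a KO lines are BA45198, BA47473 and BA49112, and the Arid2 KO lines are AB51189, AB52980 and AB55694; values by line are given in these orders. For position and for the spread between lines, the 3 Smarcb1 KO vehicle lines and the 3 vehicle lines with Braf(V600E) alone (Braf) were used as well. Vehicle was 40% Trappsol, a cyclodextrin. The same lines were also kept for 8 days in 300 nM CKI, that is CH5126766, which inhibits both RAF and MEK kinases, and the labels' wording leaves it unclear whether the vehicle cultures received bovine TSH. The lines were grown from dissociated tumors. The promoter that drives the recombinase, the allele that deletes each gene and the animal behind each line were not stated in the labels, so p-values measure the spread between lines, which may come from fewer animals than lines.

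SWI/SNF complexes use a DNA-dependent ATPase, Smarca4 or Smarca2, to move nucleosomes and keep enhancers and promoters accessible. Cells assemble several forms from shared core subunits: BAF contains Arid1a or Arid1b, PBAF contains Arid2 with Pbrm1, Phf10 and Brd7, and a non-canonical form, ncBAF, contains Brd9 with Gltscr1. BAF is known mainly from distal enhancers and PBAF from promoters, and genes for subunits of both are mutated in advanced thyroid cancers driven by BRAF. The comparison sets loss of a subunit that only BAF uses beside loss of a subunit that only PBAF uses.

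The libraries held 20860235 to 24095059 counts in Arid1a KO and 21529574 to 24065456 in Arid2 KO. Levels are CPM, counts scaled to a common library size after TMM normalization, and they are not corrected for gene length. Across genes, Pearson's r of log2 CPM was 0.931 to 0.952 among Arid1a KO lines, 0.929 to 0.935 among Arid2 KO lines and 0.855 to 0.900 between them, a description of these 6 libraries that share their gene annotation and kit. Mitochondrial genes took 2.30% to 2.70% of the counts in Arid1a KO and 3.19% to 4.03% in Arid2 KO, without overlap, and the part of that share in the results below was not tested. Xist was at 0.256, 0.176 and 0.0855 CPM in the Arid1a KO lines and at 794, 0.168 and 0.0458 CPM in the Arid2 KO lines. Line AB51189 was the only one of the 6 with more than 1 CPM of Xist, and the only one with no counts of the Y-linked genes Uty, Ddx3y, Kdm5d and Eif2s3y. Line BA45198 stood apart by interferon response genes and line AB52980 by skeletal muscle genes, as described with those lists, so the number of calls is given below without each line.

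The targeted genes came first. Arid1a stood at 95.5, 68.3 and 76.1 CPM in the Arid1a KO lines, against 168, 137 and 139 CPM in the Arid2 KO lines. All 3 Arid1a KO lines were below all 3 Arid2 KO lines, with a log2 change of -0.89 ± 0.18 (SE, edgeR adjusted p = 0.0521), which did not pass the threshold of an adjusted p of 0.05 over all genes. With line as a replicate block over 24 libraries it did (limma adjusted p = 0.0222), in a fit that called 348 genes in all. Arid2 stood at 108, 121 and 81.9998 CPM in the Arid1a KO lines, against 105, 78.6 and 98.3 CPM in the Arid2 KO lines. The groups overlapped, and the log2 change was 0.14 ± 0.20 (SE, edgeR adjusted p = 0.7998). Counts were summed over whole genes and the deleted exons are not known here, so the Arid2 counts do not check the label, and "Arid2 KO" below means the lines so labelled. The Braf lines had 129, 132 and 135 CPM of Arid1a and 88.2, 108 and 95.4 CPM of Arid2.

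None of the 25 SWI/SNF subunit genes tested, the targeted ones included, was called in either direction, against 1.09% of all genes. Their lists gave no called member of 6 BAF-specific, 4 PBAF-specific, 2 ncBAF-specific and 13 shared subunits. The median log2 changes of these lists were 0.05, 0.21, -0.06 and 0.10, beside -0.01 for all 14317 genes tested. Dpf2, a BAF subunit that reads modified histone tails, was at 90.5, 71.9 and 89.5 CPM in the Arid1a KO lines, against 62.3, 65.9 and 61.8 CPM in the Arid2 KO lines, without overlap and with a log2 change of 0.41 ± 0.13 (SE, edgeR adjusted p = 0.176). Arid1b, the alternative to Arid1a in BAF, was at 141, 122 and 101 CPM in the Arid1a KO lines, against 91.7, 87.03 and 115 CPM in the Arid2 KO lines. Its groups overlapped, and its log2 change was 0.31 ± 0.25 (SE, edgeR adjusted p = 0.587). Of the PBAF subunits, Pbrm1 stood at 204, 255 and 231 CPM in the Arid1a KO lines, against 286, 230.4 and 247 CPM in the Arid2 KO lines and Brd7 at 60.8, 72.1 and 65.5 CPM in the Arid1a KO lines, against 57.1, 57.3 and 48.7 CPM in the Arid2 KO lines, with log2 changes of -0.15 and 0.28 and adjusted p-values of 0.732 and 0.396. The ATPase gene Smarca4 ran from 292 to 340 CPM in Arid1a KO and from 327 to 346 CPM in Arid2 KO. Smarca2, the other ATPase, was at 43.3, 36.8 and 25.9 CPM in the Arid1a KO lines, against 11.7, 43.7 and 71.96 CPM in the Arid2 KO lines, and its groups overlapped widely. Dpf3 and Actl6b, subunits known from muscle and neurons, did not pass the filter on low counts.

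**Figure D1:**
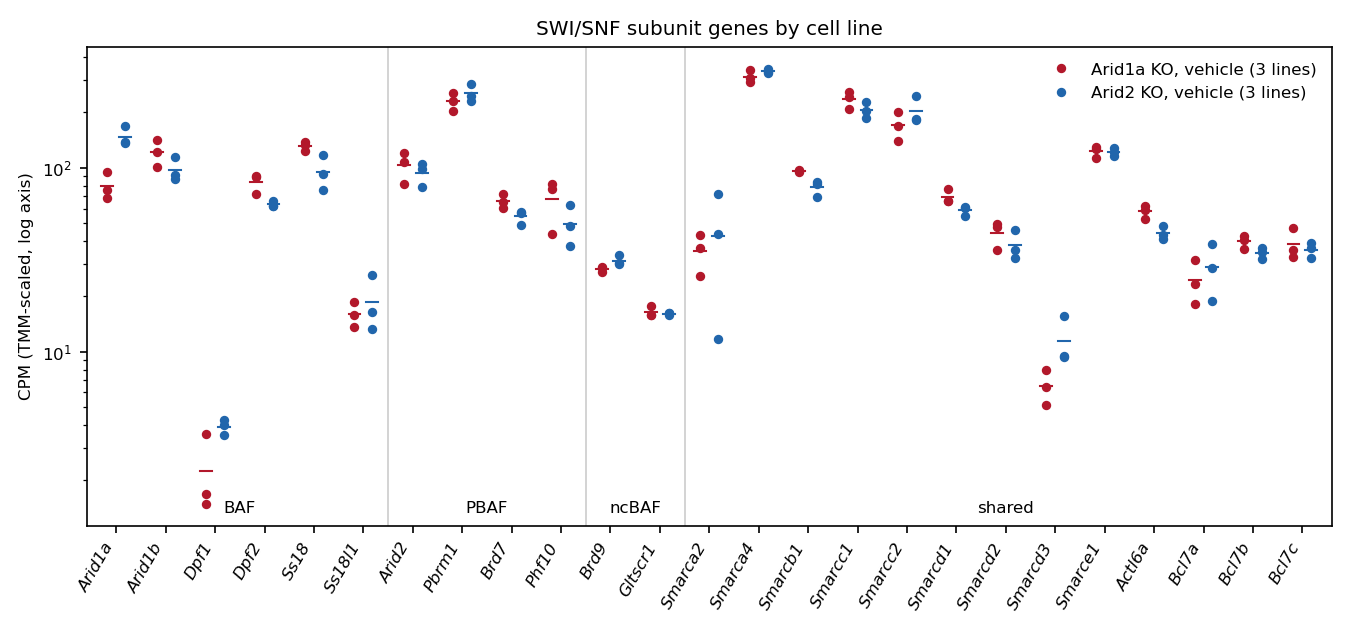
Level of each SWI/SNF subunit gene (vertical, log axis, CPM) in the 3 Arid1a KO lines (red, left of each pair) and the 3 Arid2 KO lines (blue, right), with a bar at each mean. Arid1a runs from 68.3 to 95.5 CPM in Arid1a KO lines and from 137 to 168 CPM in Arid2 KO lines, while for Arid2 the points of both groups overlap.

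Across the 14317 genes that passed the filter, 156 (1.09%) were called at an edgeR quasi-likelihood adjusted p under 0.05. Of these, 75 (0.524% of genes tested) were higher in Arid1a KO and 81 (0.566%) were lower. All 156 had 3 lines against 3 without overlap, which held upward for 13.7% and downward for 13.6% of all genes tested. The called differences were large. Calls pick genes for this same difference, so large sizes and groups without overlap are what that choice favors. The sizes that follow are a description. The median size of the log2 change was 5.24 among the genes that were higher in Arid1a KO and 2.98 among those that were lower, beside 0.33 over all genes tested. Of the 75 higher genes, 41 stayed under 1 CPM in all 3 Arid2 KO lines (54.7%, against 11.5% of all genes), so that RNA in Arid1a KO was set against next to none in Arid2 KO. Of the 81 lower genes, 21 were under 1 CPM in all 3 Arid1a KO lines (25.9%, against 11.8%). A gene near 0 in 1 group passes the filter on low counts through another group. Calling then picks it for that difference, so these shares are a description too. Without adjustment, 2322 genes had a p under 0.05.

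The number of calls depended on each single line. Without BA45198 it was 11, without BA47473 it was 15 and without BA49112 it was 21. It was 33 without AB51189, 37 without AB52980 and 29 without AB55694. DESeq2 called 1219 genes on the same 12 libraries, of which 155 were among the 156. Of the 35 called genes that the naming rule takes, 1 kept its call without BA45198, 2 without BA47473, 4 without BA49112, 7 without AB51189, 7 without AB52980 and 10 without AB55694, while none changed sign in any of these fits. With each line's vehicle and CKI libraries joined by a replicate block (limma), 348 genes were called and 14 of the 35 kept their call: Il16, Scara3, Ptgfr, Ceacam1, Dcn, Adcy8, Bhlhe22, Rasgrf1, Slit3 and Gm17322, which were higher, and Speg, Vash1, Nes and Celf4, which were lower.

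**Figure D2:**
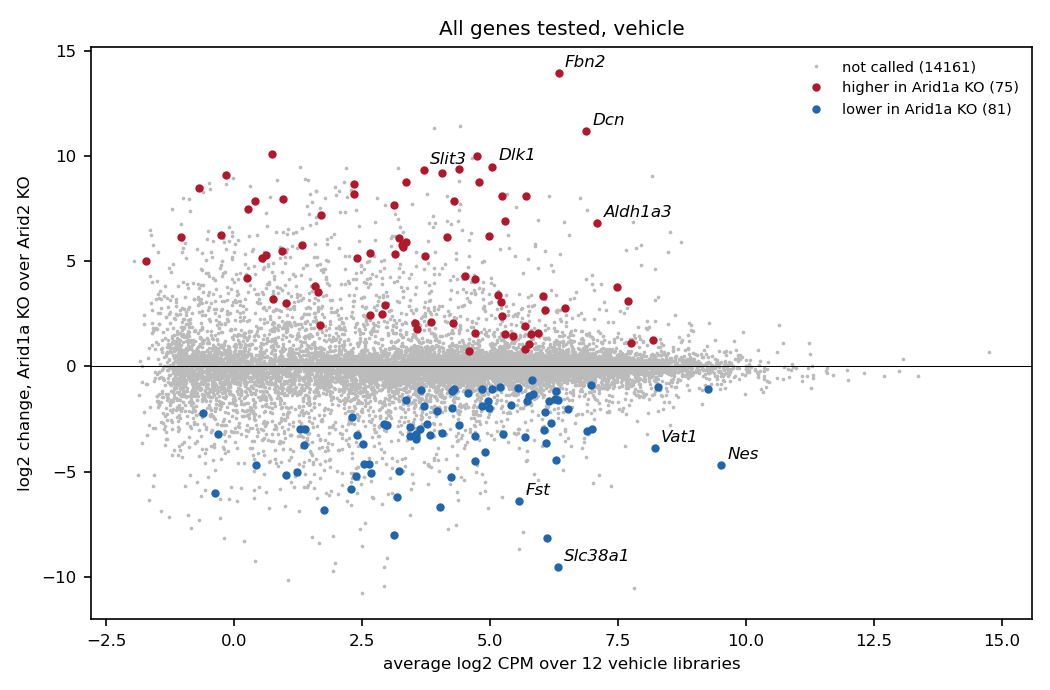
Log2 change of Arid1a KO over Arid2 KO (vertical) against average log2 CPM over the 12 vehicle libraries (horizontal) for the 14317 genes tested, with called genes in red (75 higher in Arid1a KO) and blue (81 lower). The called genes that are higher reach farther from 0 than those that are lower, up to 13.96 for Fbn2 against -9.53 for Slc38a1.

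The 15 largest rises included genes of matrix and secreted proteins. Fbn2, which encodes fibrillin-2 of elastic microfibrils, had 353, 187 and 428 CPM in the Arid1a KO lines, against 0, 0.0419 and 0 CPM in the Arid2 KO lines. The 3 Arid2 KO libraries held 1 count of Fbn2 in all and the 3 Arid1a KO libraries held 21152, a ratio of 22119 with a 95% exact binomial interval of 3969 to 873681 that covers counting error only. The fitted log2 change was 13.96 ± 2.001 (SE, edgeR adjusted p = 0.0189); for genes with so few counts in a group it depends on the prior count. Dcn, the small leucine-rich proteoglycan decorin, had 1012, 157 and 227 CPM in the Arid1a KO lines, against 0, 0.168 and 0.412 CPM in the Arid2 KO lines and a log2 change of 11.21 ± 1.71 (SE, edgeR adjusted p = 0.0213). Line BA45198 was the highest, and the lowest Arid1a KO line still stood far above every Arid2 KO line. Adamts8, a secreted metalloprotease, had 13.2, 55.5 and 120.5 CPM in the Arid1a KO lines, against 0.175, 0 and 0.137 CPM in the Arid2 KO lines, with a log2 change of 9.18. Itih2, a heavy chain that binds hyaluronan, had 340.1, 74.03 and 35.1 CPM in the Arid1a KO lines, against 0.655, 0.922 and 0.0458 CPM in the Arid2 KO lines, with a log2 change of 8.09. Slit3, a secreted guidance ligand of Robo receptors, had 11.8, 56.4 and 86.7 CPM in the Arid1a KO lines, against 0.131, 0 and 0.0915 CPM in the Arid2 KO lines. All 3 Arid1a KO lines were above 10 CPM and no Arid2 KO line reached 1 CPM, a log2 change of 9.35 ± 1.45 (SE, edgeR adjusted p = 0.0333).

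Genes of membrane and signaling proteins were among the largest rises too. Dlk1, a membrane protein related to Notch ligands, had 83.8, 135 and 171 CPM in the Arid1a KO lines, against 0.175, 0.293 and 0.0458 CPM in the Arid2 KO lines, a log2 change of 9.50 ± 1.27 (SE, edgeR adjusted p = 0.0152). Scara3, a scavenger receptor family member, had 152, 37.3 and 56.5 CPM in the Arid1a KO lines, against 0, 0.0419 and 0.3204 CPM in the Arid2 KO lines, a log2 change of 9.37 ± 1.23 (SE, edgeR adjusted p = 0.0141). In both genes every Arid1a KO line was above 30 CPM and every Arid2 KO line was below 1 CPM. Rasgrf1, a guanine nucleotide exchange factor for Ras, had 35.9, 7.66 and 20.3 CPM in the Arid1a KO lines, against 0, 0 and 0.0458 CPM in the Arid2 KO lines. Its pooled counts were 1348 and 1, a ratio of 1410 with an interval of 253 to 55717, and the edgeR adjusted p was 0.0333. Ptgfr, the receptor for prostaglandin F2-alpha, had 16.4, 37.6 and 5.17 CPM in the Arid1a KO lines, against 0.0437, 0.0838 and 0 CPM in the Arid2 KO lines. Its pooled counts were 1296 and 3, a ratio of 452 with an interval of 154 to 2193, and the edgeR adjusted p was 0.0193. Adcy8, an adenylyl cyclase that is activated by calcium, had 22.1, 10.7 and 88.3 CPM in the Arid1a KO lines, against 0.131, 0.126 and 0 CPM in the Arid2 KO lines. Ceacam1, an immunoglobulin-family adhesion molecule, had 221, 138 and 171 CPM in the Arid1a KO lines, against 1.31, 0.0838 and 0.504 CPM in the Arid2 KO lines. The log2 changes were 8.77 for Adcy8 and 8.12 for Ceacam1, with adjusted p-values of 0.02601 and 0.0213.

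Il16, which encodes a cytokine that attracts CD4+ cells, had 21.7, 62.9 and 16.4 CPM in the Arid1a KO lines, against 0.262, 0.168 and 0.0458 CPM in the Arid2 KO lines and a log2 change of 7.67 ± 0.90 (SE, edgeR adjusted p = 0.00957). It was the only one of the 35 genes whose call held in all 20 alternative fits, where its log2 change ran from 6.87 to 8.21. Itm2a, a membrane protein, had 255, 50.6 and 12.3 CPM in the Arid1a KO lines, against 0.262, 0.2096 and 0.229 CPM in the Arid2 KO lines, a log2 change of 8.79, and Bhlhe22, a basic helix-loop-helix transcription factor, had 13.6, 39.8 and 3.55 CPM in the Arid1a KO lines, against 0.131, 0.0419 and 0 CPM in the Arid2 KO lines, a log2 change of 8.22. Line BA49112 was the lowest of the 3 Arid1a KO lines for both. Gm17322, a locus that RefSeq lists as a pseudogene, had 90.7, 43.9 and 62.1 CPM in the Arid1a KO lines, against 0.0437, 0.629 and 0.137 CPM in the Arid2 KO lines; reads that such a locus shares with a similar gene could have been counted at either.

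Nes was by far the most abundant RNA among the largest falls. It encodes nestin, an intermediate filament protein of progenitor cells, and had 63.5, 21.8 and 142 CPM in the Arid1a KO lines, against 1835, 2109 and 1951 CPM in the Arid2 KO lines. Every Arid2 KO line lay more than 10 times above every Arid1a KO line, a log2 change of -4.69 ± 0.76 (SE, edgeR adjusted p = 0.0261). Slc38a1, a sodium-coupled transporter of glutamine and other neutral amino acids, had 0, 0.08803 and 0.171 CPM in the Arid1a KO lines, against 150.04, 19.6 and 44.03 CPM in the Arid2 KO lines, a log2 change of -9.53 ± 1.34 (SE, edgeR adjusted p = 0.0186). The 3 Arid1a KO lines were at or next to 0. Speg, a kinase of striated muscle, had 0.0513, 0.08803 and 0.171 CPM in the Arid1a KO lines, against 12.2, 13.3 and 61.5 CPM in the Arid2 KO lines, a log2 change of -8.03 ± 1.05 (SE, edgeR adjusted p = 0.0141). It stood above 10 CPM in every Arid2 KO line and under 1 CPM in every Arid1a KO line.

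The 15 largest falls included genes of secreted and adhesion proteins. Fst, or follistatin, which binds and blocks activins and some BMPs, had 1.49, 0.6602 and 0.855 CPM in the Arid1a KO lines, against 19.03, 92.7 and 141 CPM in the Arid2 KO lines, a log2 change of -6.40 ± 0.80 (SE, edgeR adjusted p = 0.0135). Line AB51189 was the lowest of the Arid2 KO lines and still more than 10 times the highest Arid1a KO line. Sema4d, a membrane-bound semaphorin, had 0.718, 0.308 and 0.257 CPM in the Arid1a KO lines, against 12.9, 22.6 and 14.1 CPM in the Arid2 KO lines, a log2 change of -5.27. Vash1, which encodes a secreted protein that also trims tyrosine from alpha-tubulin, had 0.154, 0.308 and 0.171 CPM in the Arid1a KO lines, against 11.3, 3.48 and 21.7 CPM in the Arid2 KO lines, a log2 change of -5.81. Plekha7, a protein of adherens junctions, was nearly the same in the 3 Arid1a KO lines and varied more in Arid2 KO, with 1.33, 1.36 and 1.33 CPM in the Arid1a KO lines, against 18.7, 28.9 and 44.7 CPM in the Arid2 KO lines. Its log2 change was -4.51 ± 0.59 (SE, edgeR adjusted p = 0.0141).

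Among the other large falls were regulators and intracellular transport proteins. Irf8, an interferon regulatory factor best known from myeloid and B cells, had 0.359, 0.2201 and 0.299 CPM in the Arid1a KO lines, against 25.97, 26.2 and 14.97 CPM in the Arid2 KO lines, a log2 change of -6.23 with an adjusted p of 0.0411. Of the 9 leukocyte markers, 2 passed the filter and none was called. Cd68, a macrophage marker, was lower without overlap, with 1.74, 1.58 and 2.86 CPM in the Arid1a KO lines. It had 3.099, 9.43 and 5.81 CPM in the Arid2 KO lines and a log2 change of -1.56 ± 0.58 (SE, edgeR adjusted p = 0.215). From the same list, Ptprc was under 1 CPM and Cd3e was at 0 in all 6 lines. The summed level of the list was 7.78 to 24.4 CPM in Arid1a KO and 10.6 to 15.8 CPM in Arid2 KO, and its part in the Irf8 result was not tested. Kif5c, a kinesin heavy chain, had 0.308, 0.4401 and 0.299 CPM in the Arid1a KO lines, against 18.2, 18.1 and 2.79 CPM in the Arid2 KO lines; Celf4, an RNA-binding protein, had 0.308, 0.528 and 0.7695 CPM in the Arid1a KO lines, against 13.1, 21.6 and 5.81 CPM in the Arid2 KO lines; and Cxxc5, a CXXC zinc finger protein, had 0.615, 0.572 and 0.299 CPM in the Arid1a KO lines, against 14.1, 3.14 and 19.7 CPM in the Arid2 KO lines. None of these groups overlapped, which the naming rule requires of the largest changes, and the log2 changes were -5.20, -4.64 and -4.62. Gca, the calcium-binding protein grancalcin, had 0.308, 0.264 and 0.128 CPM in the Arid1a KO lines, against 8.99, 6.37 and 8.51 CPM in the Arid2 KO lines and a log2 change of -5.07. Osbp2, an oxysterol-binding protein, had 1.23, 0.792 and 0.641 CPM in the Arid1a KO lines, against 10.96, 68.9 and 5.49 CPM in the Arid2 KO lines, and line AB52980 alone held most of it; its call was at the threshold (adjusted p = 0.0499) and it kept it in 4 of 20 alternatives. Gm8399, a pseudogene in RefSeq, had 0.667, 0.528 and 0.641 CPM in the Arid1a KO lines, against 92.9, 94.7 and 1.01 CPM in the Arid2 KO lines; it was high in 2 of the 3 Arid2 KO lines, and line AB55694 stood barely above the Arid1a KO lines.

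**Figure D3:**
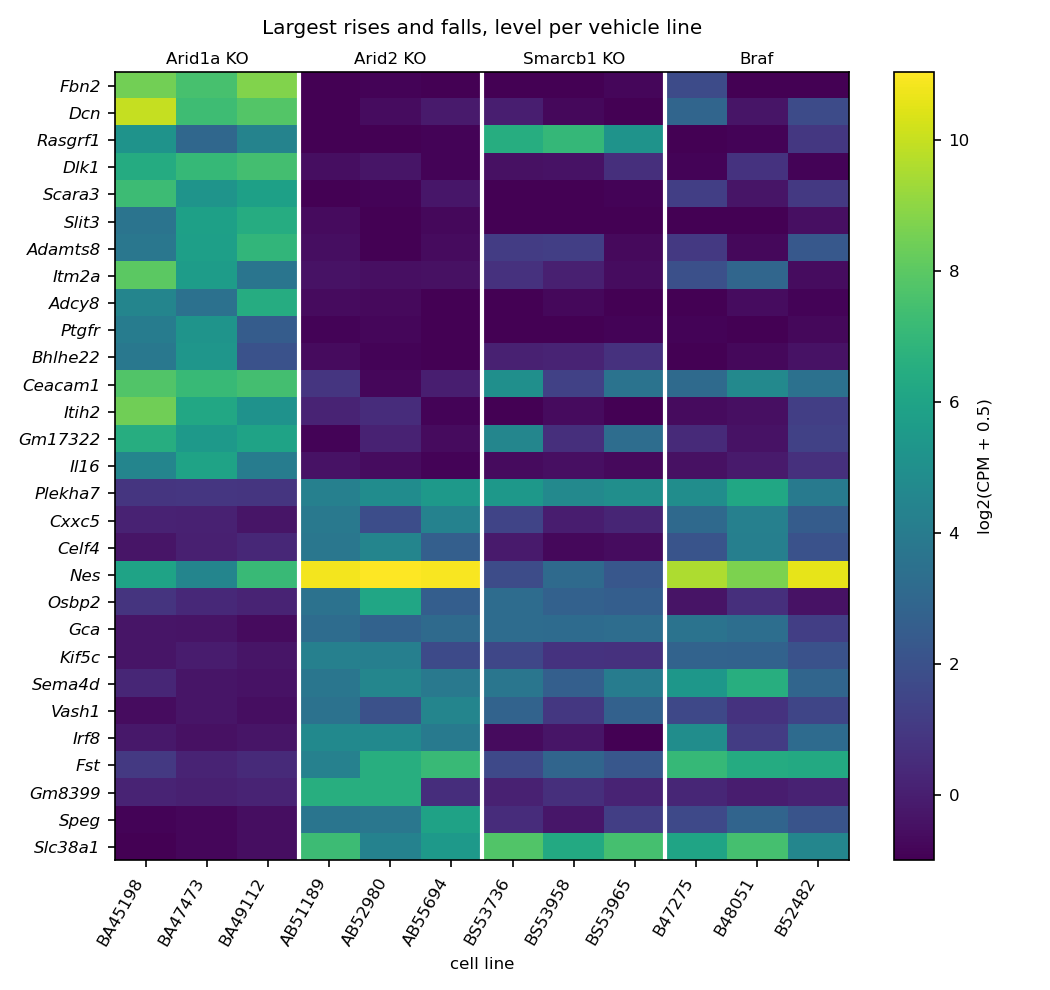
Level, as log2(CPM + 0.5), of the 15 largest rises (top) and 14 of the 15 largest falls (bottom) in each vehicle line, grouped as Arid1a KO, Arid2 KO, Smarcb1 KO and Braf. The upper genes are bright in the 3 Arid1a KO columns and dark in the Arid2 KO columns, the lower genes are the reverse, and most upper genes are dark in the Braf columns as well.

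Among the genes with the smallest p-values were 4 that the naming rule does not take; they were chosen after their values were seen. Vat1, a membrane-associated protein of the quinone oxidoreductase family, had 30.2, 20.2 and 30.4 CPM in the Arid1a KO lines, against 359, 495 and 349 CPM in the Arid2 KO lines, a log2 change of -3.90 ± 0.25 (SE, edgeR adjusted p = 0.000371), the smallest adjusted p of the comparison. Gm10036, a predicted gene, had 34.3, 25.97 and 36.6 CPM in the Arid1a KO lines, against 0.742, 0.671 and 0.961 CPM in the Arid2 KO lines, a log2 change of 5.34 ± 0.45 (SE, edgeR adjusted p = 0.00186). Rnf149, a RING-type E3 ubiquitin ligase, had 92.6, 96.5 and 116 CPM in the Arid1a KO lines, against 33.9, 32.9 and 34.4 CPM in the Arid2 KO lines, a log2 change of 1.59 ± 0.14 (SE, edgeR adjusted p = 0.00186). Its Arid2 KO lines differed among themselves by less than 2 CPM. Fads3, a member of the fatty acid desaturase family, had 36.8, 27.7 and 34.8 CPM in the Arid1a KO lines, against 249, 313 and 219 CPM in the Arid2 KO lines, a log2 change of -2.98 ± 0.28 (SE, edgeR adjusted p = 0.00243).

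Promoters of the 30 largest changes were searched for the AP-1 binding motif TGANTCA, because the AP-1 family recruits BAF to enhancers in other cell types. The table of RefSeq promoters (GRCm38.p6, 250 bases before to 50 after a start) held 26 promoters of 16 of the 30 genes. The motif, read on both strands, was in 3 of the 26 (11.5%), against 2565 of 32851 promoters in all (7.81%). The 3 promoters that hold it belong to 2 genes that rose and 1 that fell; they are shown 5′ to 3′ on the gene's strand, with the motif in capitals. A match is a description of these letters and not a bound site.
Il16 promoter (chr7:83735490-83735789, minus strand): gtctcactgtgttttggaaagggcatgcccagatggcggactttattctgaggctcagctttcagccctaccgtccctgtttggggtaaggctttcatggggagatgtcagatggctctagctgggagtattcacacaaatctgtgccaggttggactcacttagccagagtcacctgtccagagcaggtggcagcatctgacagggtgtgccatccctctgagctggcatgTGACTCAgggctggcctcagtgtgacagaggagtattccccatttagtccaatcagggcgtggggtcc
Itih2 promoter (chr2:10130634-10130933, minus strand): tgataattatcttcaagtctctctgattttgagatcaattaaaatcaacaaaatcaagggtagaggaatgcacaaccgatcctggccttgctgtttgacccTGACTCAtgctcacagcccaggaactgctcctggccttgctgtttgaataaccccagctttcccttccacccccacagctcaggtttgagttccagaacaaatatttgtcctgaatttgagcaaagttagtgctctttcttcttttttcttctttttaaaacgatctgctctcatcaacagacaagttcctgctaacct
Sema4d promoter (chr13:51748761-51749060, minus strand): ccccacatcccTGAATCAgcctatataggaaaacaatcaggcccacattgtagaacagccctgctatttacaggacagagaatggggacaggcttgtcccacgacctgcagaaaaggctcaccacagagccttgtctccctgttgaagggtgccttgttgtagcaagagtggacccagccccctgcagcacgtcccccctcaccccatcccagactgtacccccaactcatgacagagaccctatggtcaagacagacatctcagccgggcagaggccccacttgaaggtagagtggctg
The motif begins 18 bases before the start in Il16, 149 bases before it in Itih2 and 239 bases before it in Sema4d. Il16 and Itih2, which hold TGACTCA, were higher in Arid1a KO, and Sema4d, which holds TGAATCA, was lower.

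Fibroblast markers had the highest median log2 change of the 34 lists. Of 13 members tested, 2 rose (Dcn and Col6a3), none fell and 11 were not called, where 0.524% of all genes tested rose. A log2 change above 0 was found for 12 of the 13, against 49.1% of all genes tested. The median log2 change was 5.65, beside -0.01 over all genes tested, and 8 members were higher without overlap, where 13.7% of all genes were. Col6a3, a chain of collagen VI, had 198, 134 and 114 CPM in the Arid1a KO lines, against 1.004, 1.26 and 1.37 CPM in the Arid2 KO lines, a log2 change of 6.93 ± 1.08 (SE, edgeR adjusted p = 0.0333). Pdgfra, a receptor tyrosine kinase of mesenchymal cells, had 1006, 478 and 350.02 CPM in the Arid1a KO lines, against 2.62, 5.198 and 7.83 CPM in the Arid2 KO lines, and Col3a1 had 1189, 1162 and 267 CPM in the Arid1a KO lines, against 26.2, 17.8 and 8.24 CPM in the Arid2 KO lines. Neither was called, with adjusted p-values of 0.0962 and 0.07904. Col5a1 went the other way, with 62.5, 59.6 and 42.9 CPM in the Arid1a KO lines, against 251, 217 and 251 CPM in the Arid2 KO lines and an adjusted p of 0.363. The summed level of the list was 1607 to 4764 CPM in Arid1a KO, 264 to 327 CPM in Arid2 KO and 12.3 to 568 CPM in Braf. Thy1, a defining fibroblast marker, was below 1 CPM in all 6 lines, and Lum was above 10 CPM in BA45198 alone (149, 1.85 and 8.51 CPM in the Arid1a KO lines, against 0.4802, 0.0419 and 0 CPM in the Arid2 KO lines). In bulk RNA, fewer cells of a type and less RNA per cell cannot be told apart. The part of these markers in the other results was not tested. With any 1 of the 6 lines left out no fibroblast marker was called, and the median log2 change lay between 5.33 and 6.55. Without the Braf line B47275, 1 was called, in a fit that called 107 genes in all. With line as a replicate block Dcn held its call and Col6a3 did not (limma adjusted p-values of 0.0494 and 0.0964).

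Mesenchymal genes leaned the same way without a call. Of 17 tested, 13 had a log2 change above 0, against 49.1% of all genes tested, and 10 were higher without overlap, against 13.7%. The median was 1.46. Prrx1, a homeobox factor of mesenchyme, had 352, 90.4 and 330.3 CPM in the Arid1a KO lines, against 9.08, 0 and 1.19 CPM in the Arid2 KO lines and an adjusted p of 0.1003. Snai2, a repressor of epithelial genes, had 106, 124 and 45.3 CPM in the Arid1a KO lines, against 14.6, 11.8 and 3.34 CPM in the Arid2 KO lines and an adjusted p of 0.108. Cdh2, or N-cadherin, was lower in all 3 Arid1a KO lines, with 74.1, 121 and 121 CPM in the Arid1a KO lines, against 207, 236 and 321 CPM in the Arid2 KO lines and an adjusted p of 0.204. Vim was abundant in both groups, with 2705, 3439 and 5596 CPM in the Arid1a KO lines, against 3972, 4309 and 5061 CPM in the Arid2 KO lines. Few epithelial genes were detected: of 20 tested, 3 were above 1 CPM in all Arid1a KO lines and 5 in all Arid2 KO lines. None was called, where 1.09% of all genes tested were. The claudin Cldn3 had 2.05, 0 and 0.0428 CPM in the Arid1a KO lines, against 63.5, 3.31 and 58.7 CPM in the Arid2 KO lines, without overlap and with an adjusted p of 0.219. Summed epithelial levels were 323 to 399 CPM in Arid1a KO, 89.4 to 1080 CPM in Arid2 KO and 1658 to 11038 CPM in Braf.

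None of the 12 thyroid differentiation genes tested was called, where 1.09% of all genes tested were. A further 9 members, Tshr among them, did not pass the filter. A log2 change above 0 was found for 3 of the 12, against 49.1% of all genes tested. Without overlap, 0 were higher and 3 were lower, where 13.7% and 13.6% of all genes tested were. The lineage factors Pax8 and Nkx2-1 overlapped between the groups. Pax8 had 70.3, 37.9 and 35.1 CPM in the Arid1a KO lines, against 38.02, 64.1 and 141 CPM in the Arid2 KO lines, and Nkx2-1 had 108, 44.9 and 34.5 CPM in the Arid1a KO lines, against 72.4, 74.1 and 219.9 CPM in the Arid2 KO lines. Both were thus still present in every line, and AB55694 was the highest for both. Tg, which encodes thyroglobulin, was at or below 17.3 CPM in the 6 lines, with 17.3, 0.6602 and 1.03 CPM in the Arid1a KO lines, against 7.95, 7.001 and 14.3 CPM in the Arid2 KO lines. Thrb, a thyroid hormone receptor, had the smallest p of the list (adjusted p = 0.222) with 0.718, 0.968 and 0.0428 CPM in the Arid1a KO lines, against 3.01, 11.8 and 7.14 CPM in the Arid2 KO lines. The list's median log2 change was -0.63.

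Handling of retinoic acid, a vitamin A derivative that acts through nuclear receptors, gave 2 called genes of 12 tested, both higher, where 0.524% of all genes tested were. Stra6, the cell-surface receptor that takes up retinol, had 40.4, 159.5 and 77.5 CPM in the Arid1a KO lines, against 2.31, 0.419 and 0.961 CPM in the Arid2 KO lines, a log2 change of 6.23 ± 1.14 (SE, edgeR adjusted p = 0.0381). Aldh1a3, which oxidizes retinaldehyde to retinoic acid, had 74.3, 25.6 and 21.3 CPM in the Arid1a KO lines, against 0.524, 0 and 0.549 CPM in the Arid2 KO lines, a log2 change of 6.81 ± 1.27 (SE, edgeR adjusted p = 0.0408). Crabp1, a cytosolic carrier of retinoic acid, was abundant in Arid1a KO, with 830.2, 398 and 777 CPM in the Arid1a KO lines, against 1.57, 31.6 and 0.137 CPM in the Arid2 KO lines; AB52980 stood apart from the other Arid2 KO lines and the gene was not called (adjusted p = 0.172). For both genes the Braf lines stood above all Arid2 KO lines, with 18.3, 53.05 and 24.4 CPM of Stra6 and 19.9, 157 and 52.3 CPM of Aldh1a3. The median of the list was 2.30; without BA45198 it was 0.58, and neither gene was called with any 1 of the 6 lines left out. Without the Braf line B47275 or the Smarcb1 KO line BS53965, 1 was called, in fits that called 107 and 146 genes in all. With line as a replicate block, neither held its call, with adjusted p-values from limma of 0.196 for Stra6 and 0.323 for Aldh1a3. The summed level was 760 to 1322 CPM in Arid1a KO, 137 to 160.3 CPM in Arid2 KO and 243 to 444 CPM in Braf. In the Smarcb1 KO lines BS53736, BS53958 and BS53965 it was 1854, 2389 and 987 CPM. Crabp1, which was not called, made up most of the sum in each Arid1a KO line.

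In 4 further lists 1 member was called, which describes that gene and not its list; 1.09% of all genes tested were called in either direction. Of 20 Wnt ligands, receptors and antagonists, Dkk3, a secreted Dickkopf family protein, rose, with 24.1, 11.7 and 8.72 CPM in the Arid1a KO lines, against 0.262, 0.252 and 0.732 CPM in the Arid2 KO lines and a log2 change of 5.14 ± 0.74 (SE, edgeR adjusted p = 0.0189). Its relative Dkk2, a Wnt antagonist, had 112, 201 and 146 CPM in the Arid1a KO lines, against 1.22, 7.88 and 0.0458 CPM in the Arid2 KO lines and was not called (adjusted p = 0.283). Of 14 genes of BMP signaling, Fst fell, as above, and Nog, or noggin, a secreted BMP antagonist, had 0.205, 0.396 and 1.07 CPM in the Arid1a KO lines, against 6.24, 12.1 and 16.3 CPM in the Arid2 KO lines with an adjusted p of 0.09104. The BMP target Id3 had 311, 152 and 80.1 CPM in the Arid1a KO lines, against 46.6, 58.5 and 62.6 CPM in the Arid2 KO lines and an adjusted p of 0.176. The list as a whole was balanced, with 7 of 14 genes above 0 and a median log2 change of -0.09. Without overlap, 2 were higher and 2 lower, where 13.7% and 13.6% of all genes tested were. Of 24 axon guidance genes, Slit3 rose. Slit2, its paralog, went the other way without a call, with 94.9, 100.2 and 144 CPM in the Arid1a KO lines, against 275, 362 and 471 CPM in the Arid2 KO lines and an adjusted p of 0.0647. Of 7 smooth muscle contractile genes, Tpm2, a tropomyosin, rose, with 43.9, 37.4 and 35.01 CPM in the Arid1a KO lines, against 0.437, 1.93 and 0.687 CPM in the Arid2 KO lines and a log2 change of 5.24 ± 0.98 (SE, edgeR adjusted p = 0.0408). With line as a replicate block, limma's adjusted p-values were 0.105 for Dkk3, 0.0681 for Fst and 0.0998 for Tpm2, and Slit3 alone of these 4 held its call (0.0132). The smooth muscle marker Acta2 was under 1 CPM in all lines but AB52980.

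Genes of cholesterol synthesis lay mostly below 0 without a call. Of 19 genes tested, 18 had a log2 change below 0, and 13 were lower in Arid1a KO without overlap, where 13.6% of all genes were. At an unadjusted edgeR p under 0.05, 8 were lower, where 1240 of all 14317 genes tested were. The median log2 change was -0.80. Sc5d, which acts late in the pathway, had 26.6, 21.3 and 19.4 CPM in the Arid1a KO lines, against 42.8, 51.7 and 59.1 CPM in the Arid2 KO lines and a log2 change of -1.19 ± 0.29 (SE, edgeR adjusted p = 0.0831). Mvk, mevalonate kinase, had 11.9, 11.6 and 13.7 CPM in the Arid1a KO lines, against 19.99, 34.2 and 30.5 CPM in the Arid2 KO lines. Summed levels were 747 to 889 CPM in Arid1a KO, 1056 to 1439 CPM in Arid2 KO and 1029 to 2215 CPM in Braf. With any 1 of the 6 lines left out the median lay between -1.02 and -0.71 and no gene was called. Without the Braf line B52482, 4 were called, and DESeq2 called 6, in fits that called 225 and 1219 genes in all.

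Output genes of the MAPK pathway, which the Braf allele drives in every line, gave no call among 20 tested. Of all genes tested, 1.09% were called. Without overlap, 5 of the 20 were higher and 2 were lower, where 13.7% and 13.6% of all genes tested were. Egr1, an immediate early factor, had 185, 117 and 75.4 CPM in the Arid1a KO lines, against 41.9, 28.3 and 50.2 CPM in the Arid2 KO lines and an adjusted p of 0.0736. Spry4, a feedback inhibitor of receptor signaling, had 197, 201 and 207 CPM in the Arid1a KO lines, against 70.5, 30.3 and 37.7 CPM in the Arid2 KO lines and an adjusted p of 0.147. Ier3, an early response gene, had 27.7, 22.1 and 27.9 CPM in the Arid1a KO lines, against 89.2, 48.5 and 94.7 CPM in the Arid2 KO lines and an adjusted p of 0.0689. Egr1 and Spry4 were thus higher and Ier3 was lower in all 3 Arid1a KO lines, without a call. Dusp6, the ERK phosphatase, overlapped, with 362, 212 and 165 CPM in the Arid1a KO lines, against 178, 240.4 and 286 CPM in the Arid2 KO lines. Among receptor tyrosine kinases and ligands, Fgf2, a fibroblast growth factor, had 15.6, 18.4 and 14.02 CPM in the Arid1a KO lines. It had 1.57, 1.05 and 0.412 CPM in the Arid2 KO lines and an edgeR adjusted p of 0.0774. With the replicate block, a fit that called 348 genes in all, its limma adjusted p was 0.0317. Of 16 genes of glycolysis and hypoxia none was called, against 1.09% of all genes tested. Hk2, which phosphorylates glucose, had 30.6, 43.4 and 38.6 CPM in the Arid1a KO lines. It had 153, 100.2 and 90.5 CPM in the Arid2 KO lines and an edgeR adjusted p of 0.0774. The 24 cell cycle genes held no call and had a median log2 change of 0.07. None was without overlap, where 13.7% of all genes tested were higher and 13.6% lower without overlap.

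Interferon response genes were set apart by 1 line. Of 21 tested, 20 had a log2 change above 0 and the median was 3.17, but the summed level was 2271 CPM in BA45198, 146 in BA47473 and 101 in BA49112, against 139, 115 and 166 CPM in the Arid2 KO lines. Line BA45198 was the highest of the 6 lines for 20 of the 21 genes. Isg15, a ubiquitin-like protein that interferon induces, had 156, 1.94 and 1.75 CPM in the Arid1a KO lines, against 1.27, 3.35 and 1.602 CPM in the Arid2 KO lines. Without BA45198 the median of the list was -0.60 and the log2 change of Isg15 was -0.17. Among MHC class I presentation genes, none of 12 was called, where 1.09% of all genes tested were. For 9 of the 12, BA45198 was the highest line.

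Skeletal muscle markers were highest in line AB52980. The 12 skeletal muscle markers summed to 26.6, 86.7 and 139 CPM in the Arid1a KO lines and to 0.873, 319 and 0.458 CPM in the Arid2 KO lines. Only 2 passed the filter. Myh1, a fast myosin heavy chain, had 0.0513, 1.63 and 0.898 CPM in the Arid1a KO lines, against 0, 24.4 and 0.183 CPM in the Arid2 KO lines, while Chrna1, a subunit of the muscle acetylcholine receptor, had 26.4, 84.6 and 138 CPM in the Arid1a KO lines, against 0.262, 28.3 and 0.0458 CPM in the Arid2 KO lines and made up most of the Arid1a KO sums. Neither was called. Myod1, the myogenic factor, was at 56.6 CPM and Acta1, skeletal actin, at 94.7 CPM in AB52980; Myod1 was at 0 in the 5 other lines. The part of this line's muscle RNA in the calls was not tested beyond leaving the line out.

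**Figure D4:**
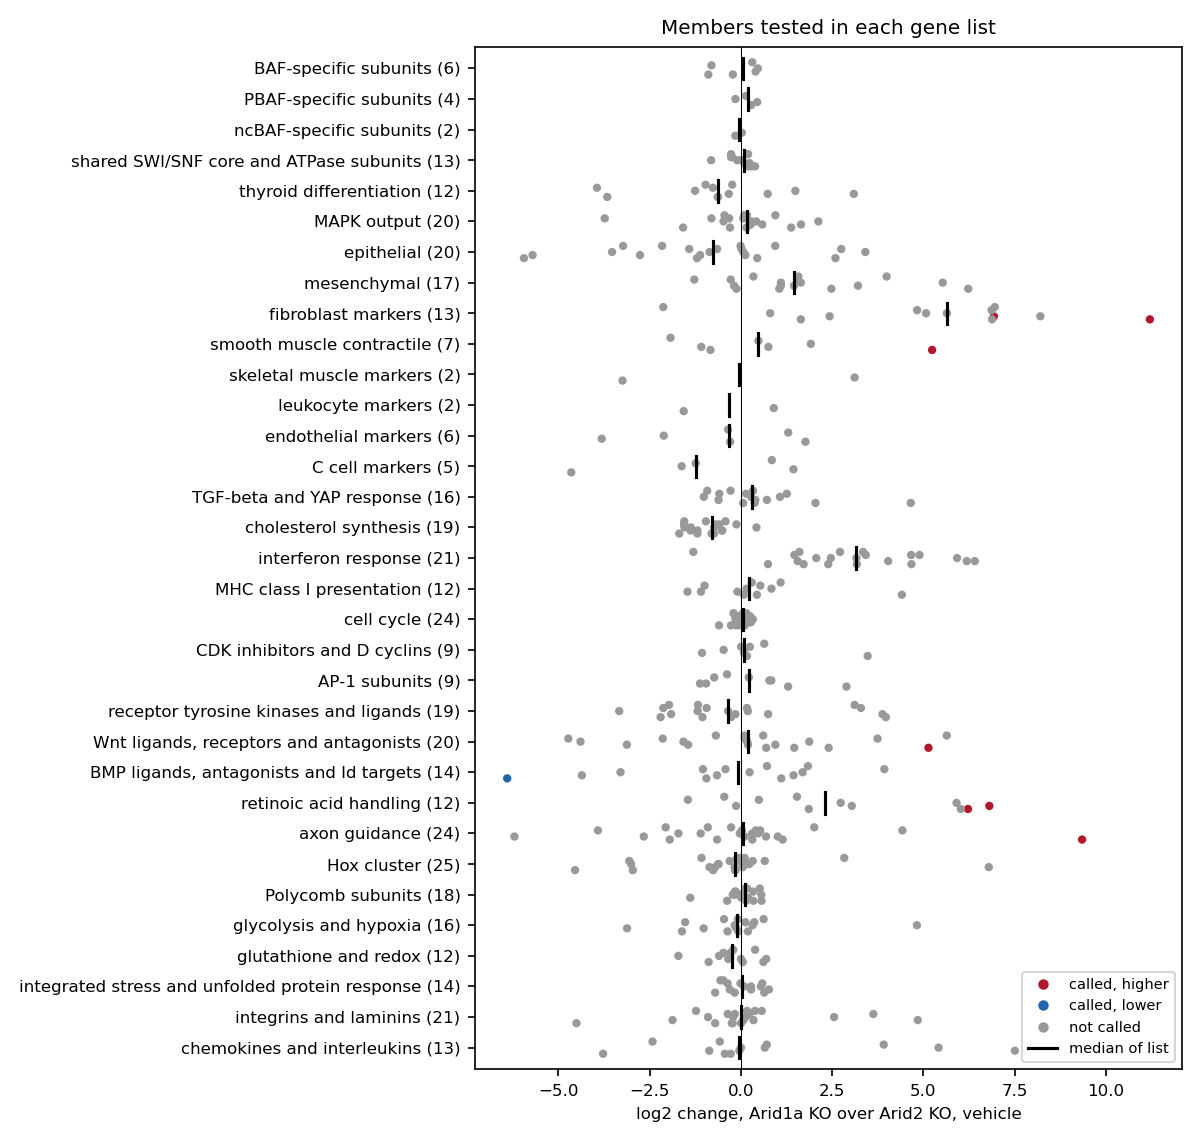
Log2 change of Arid1a KO over Arid2 KO for every tested member of each gene list (1 dot per gene, number tested in parentheses), with the list's median as a bar and called members in red (higher) or blue (lower). Fibroblast markers have a median of 5.65 with 2 red dots, interferon genes a median of 3.17 with no call, and cholesterol synthesis a median of -0.80 with no call.

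The remaining lists had no called member, where 1.09% of all genes tested were called. The one with the smallest p in each was Cd68 for leukocytes (adjusted p = 0.215), Egfl7 for endothelium (0.113), Ret for C cells (0.239), Tgfbi for the TGF-beta and YAP response (0.2003), Psmb8 for MHC class I (0.189), Rrm2 for the cell cycle (0.495) and Cdkn1c for CDK inhibitors and D cyclins (0.316). For Hox genes it was Hoxa10 (0.12999), for Polycomb subunits Bmi1 (0.1005) and for glutathione and redox Gss (0.224). For the stress and unfolded protein response it was Pdia4 (0.376), for integrins and laminins Itga7 (0.1403) and for chemokines and interleukins Ccl5 (0.157). With the replicate block, a fit that called 348 genes in all, the limma adjusted p of Ccl5 was 0.0436. Hoxa10 had 0.8205, 0.176 and 0.128 CPM in the Arid1a KO lines, against 14.97, 3.81 and 7.46 CPM in the Arid2 KO lines, Itga7 7.54, 5.63 and 10.1 CPM in the Arid1a KO lines, against 136, 352 and 38.999 CPM in the Arid2 KO lines, and Tgfbi 1611, 1107 and 174 CPM in the Arid1a KO lines, against 58.5, 7.67 and 48.4 CPM in the Arid2 KO lines. The groups did not overlap for any of these 3, where 13.7% of all genes tested were higher and 13.6% lower without overlap. These genes had the smallest p of their lists, a choice that favors groups without overlap.

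Setting both genotypes beside the Braf lines placed the differences. Arid1a KO against Braf called 165 of 14317 genes (1.15%), 45 higher (0.314%) and 120 lower (0.838%). Arid2 KO against Braf called 0 genes (0%) by edgeR, with 1638 at an unadjusted p under 0.05 and 611 calls by DESeq2. These contrasts share the Braf lines, and a count past the threshold in one and not in the other does not show that they differ. Leaving out lines moved the Arid1a KO count between 3 and 912, with 6 calls without BA45198, 3 without BA47473, 12 without BA49112, 17 without the Braf line B47275, 38 without B48051 and 912 without B52482. It was 89 without AB51189, 81 without AB52980 and 93 without AB55694. The Arid2 KO count was 113 without B52482, 5 without AB52980 or AB55694, 4 without BS53958, 1 without B47275, B48051 or BS53965 and 0 without each of the 5 other lines.

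On the log2(CPM + 0.5) scale, the Braf mean lay nearer to Arid2 KO than to Arid1a KO for 59 of the 75 higher genes (78.7%) and 61 of the 81 lower genes (75.3%), beside 56.4% of all genes tested. The Smarcb1 KO mean lay nearer to Arid2 KO for 62 of 75 higher genes (82.7%) and 48 of 81 lower genes (59.3%), beside 52.4% of all genes. Of the 75 higher genes, 41 were under 1 CPM in all 3 Arid2 KO lines. A further group near 0 lies nearer to Arid2 KO for such genes because of how they were chosen. The shares over all genes are not matched for this, so these counts are a description. For Fbn2, Dcn, Dlk1 and Slit3 the Braf lines were low, with 2.82, 0 and 0 CPM of Fbn2, 7.12, 0.308 and 2.91 CPM of Dcn, 0.0462, 1.18 and 0.05101 CPM of Dlk1 and 0, 0 and 0.204 CPM of Slit3. For Nes they were high, with 743, 409 and 1526 CPM, while the Smarcb1 KO lines had 2.99, 8.52 and 4.29 CPM, below all Arid1a KO lines. The log2 change of Nes was -3.56 ± 0.72 (SE, edgeR adjusted p = 0.0501) for Arid1a KO over Braf and 1.14 ± 0.66 (SE, edgeR adjusted p = 0.555) for Arid2 KO over Braf. For Slc38a1 these were -9.86 ± 1.35 (SE, edgeR adjusted p = 0.0179) and -0.32 ± 0.85 (SE, edgeR adjusted p = 0.921). Of the 15 largest rises, Rasgrf1 alone had a Smarcb1 KO mean above the Arid1a KO mean, with 91.2, 129 and 36.02 CPM in Smarcb1 KO and 0, 0.0514 and 1.43 CPM in Braf.

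The same lines under CKI gave 4 called genes of 14709 tested (0.0272%), 2 higher (0.0136%) and 2 lower (0.0136%), with 1741 at an unadjusted p under 0.05 and 683 calls by DESeq2. All 4 are named because they are few: Gstm2, Steap4, Speg and Vat1, of which Speg and Vat1 were also called in vehicle. Under CKI, Vat1 had 29.98, 23.9 and 50.1 CPM in the Arid1a KO lines, against 269.6, 253 and 221 CPM in the Arid2 KO lines, a log2 change of -2.84 ± 0.36 (SE, edgeR adjusted p = 0.0435). Gstm2, a glutathione transferase, had 72.3, 137 and 96.3 CPM in the Arid1a KO lines, against 1.75, 6.79 and 5.103 CPM in the Arid2 KO lines under CKI, a log2 change of 4.49 ± 0.57 (SE, edgeR adjusted p = 0.0435). The Smarcb1 KO library of BS53965 in this fit held 2884130 counts, the fewest of all, and without it the count was 0. The count was also 0 without BA45198, BA47473 or BA49112, 2 without AB51189 and 1 without AB52980, AB55694 or the Braf line B47275, and none of the 4 genes was among these. It was 33 without B48051, 13 without B52482 and 10 without BS53736, with all 4 genes among them, and 6 without BS53958. Of the genes called higher in vehicle, 66 were tested under CKI. A log2 change above 0 was found there for 58, and for 6576 of the 13888 genes tested in both treatments. Without overlap, 42 were higher, where 11.4% of the 13888 genes were. Of the 81 called lower, 75 had a log2 change below 0, as did 7309 of the 13888 genes. Without overlap, 41 were lower, where 10.9% of the 13888 genes were. The lines are the same in both treatments, so this compares treatments and not separate lines.

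Whether the difference changed between vehicle and CKI was tested with each line's own vehicle library as a block. Any difference in bovine TSH between the treatments, which the labels leave unclear, is part of this change. The change was called for 47 of 15634 genes (0.301%), 28 upward (0.179%) and 19 downward (0.122%). It was called for 9 of the 156 genes called in vehicle, all 9 with a smaller difference under CKI. The 156 were chosen for their difference in the same vehicle libraries, and a smaller difference under CKI is what that choice alone favors, so the 9 are a description. Fst and Plekha7 were the 2 of these named by rule. Under CKI, Fst had 18.9, 90.5 and 95.6 CPM in the Arid1a KO lines, against 37.6, 179 and 207 CPM in the Arid2 KO lines, and Plekha7 had 34.2, 42.7 and 17.01 CPM in the Arid1a KO lines, against 7.44, 37.5 and 56.8 CPM in the Arid2 KO lines. Both genes were thus above 15 CPM in every Arid1a KO line under CKI, and their groups overlapped. In vehicle they did not, which the naming rule requires of the largest changes. The change of the log2 difference was 5.01 ± 0.70 (SE, edgeR adjusted p = 0.0199) for Fst and 4.61 ± 0.52 (SE, edgeR adjusted p = 0.00783) for Plekha7. The groups of Nes did not overlap under CKI either, with 13.3, 5.701 and 6.47 CPM in the Arid1a KO lines, against 765, 2258 and 917 CPM in the Arid2 KO lines, nor did those of Slit3, with 111, 384 and 463 CPM in the Arid1a KO lines, against 0.0896, 0.0465 and 0.355 CPM in the Arid2 KO lines. Neither was called there (edgeR adjusted p = 0.0527 for each). Ceacam1 was low in both groups under CKI, with 4.85, 5.94 and 2.05 CPM in the Arid1a KO lines, against 1.12, 0.139 and 0.399 CPM in the Arid2 KO lines, and its change of the difference was -5.32 ± 1.41 (SE, edgeR adjusted p = 0.162), which was not called. The count of 47 was 8 without BA47473 or AB55694, 10 without AB52980, 11 without BA49112, 32 without BA45198, 69 without AB51189, 20 without BS53965, 29 without B48051 and 77 without B52482. Plekha7 was called in each of the 12 fits that leave out a line, and Fst was not called without BA47473, BA49112, AB52980 or AB55694 (edgeR adjusted p-values of 0.0772 to 0.104).

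**Figure D5:**
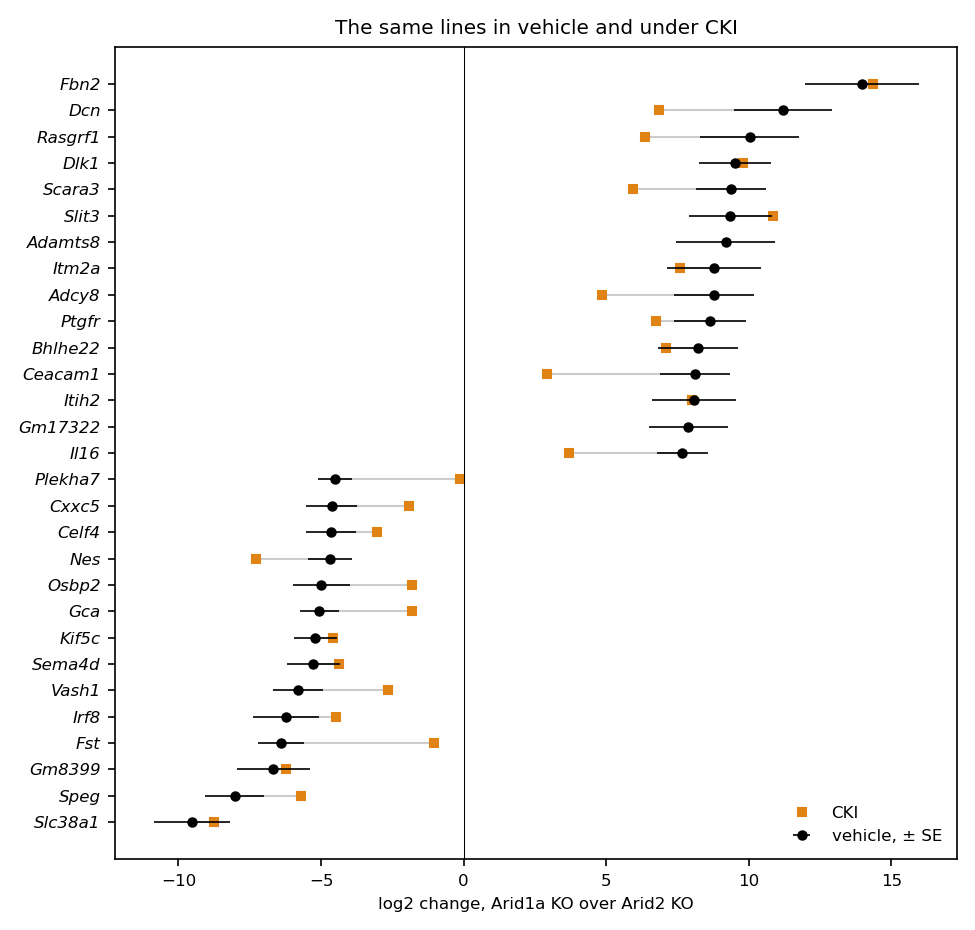
Log2 change of Arid1a KO over Arid2 KO for 29 of the 30 largest changes, 1 row per gene. Orange squares are CKI, and black dots with SE bars are vehicle. The genes were chosen for their difference in vehicle in these same lines. All 27 squares lie on the same side of 0 as their dot; those of Fst (-1.05) and Plekha7 (-0.12) lie close to 0, and Gm17322 and Adamts8, which were not tested under CKI, have no square.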

How the data were processed

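RNA was measured by RNA-seq. The authors deposited 1 table of raw read counts per gene; per the submitters' processing notes, STAR 2.4, HTSeq 0.6.1 and DESeq2 were used with mouse build mm9, with no role given, and the labels' protocols name a TruSeq RNA kit without a strand setting. Without strand, reads of a gene and an overlapping antisense gene cannot be told apart.

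From the counts, edgeR 4.0.16 (R 4.3.3) fitted the 12 vehicle libraries, 1 per line, with TMM scaling, filterByExpr, a term per genotype and the quasi-likelihood test on 8 residual degrees of freedom, with Benjamini-Hochberg adjustment over all genes tested. Of 33924 genes 14317 were tested. The 6 CKI libraries were fitted the same way with the other lines' CKI libraries, and the change with CKI over 24 libraries with line as a block. SE is the size of the log2 change over the square root of F. Ratios of pooled counts have a 95% exact binomial interval, which covers counting error only. Alternatives used limma 3.58.1 and DESeq2 1.42.0, and the scripts were tested on simulated data.

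The genes named are the SWI/SNF subunits, the 15 genes that rose most and the 15 that fell most (called, groups without overlap, log2 CPM averaging 2 or more), and of each list up to 4 called members or else the 1 with the smallest p; other genes named were chosen after their values were seen. The values of some genes that this rule takes are not reported here. Members and lists (34 lists, 524 of 526 entries in the table) were chosen with earlier results of these data known. The vehicle and CKI libraries of a line come from the same line, which is the block. Their correlation in the random block was 0.486. No pair of libraries agreed within sampling noise.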

Additional observations from a re-analysis of the deposited data

Results flagged for a closer look

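The difference between Arid1a KO and Arid2 KO itself differed between CKI and vehicle for 2 of the named genes, in the test of that change over 24 libraries with the line as a block. For Fst the log2 difference was -1.05 under CKI and -6.40 in vehicle, a change of 5.01 ± 0.70 (SE, edgeR adjusted p = 0.0199). For Plekha7 it was -0.12 under CKI and -4.51 in vehicle, a change of 4.61 ± 0.52 (SE, edgeR adjusted p = 0.00783). With 1 line left out, the change ran from 4.38 to 6.08 for Fst, which lost its call without BA47473, BA49112, AB52980 or AB55694, and from 4.07 to 4.99 for Plekha7, which kept it.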

How the results depend on the processing

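Against 156 calls for Arid1a KO over Arid2 KO in vehicle, DESeq2 gave 1219, the 6 compared libraries alone 432 and 24 libraries counted as independent 401. With line as a replicate block over 24 libraries, limma gave 348 calls, of which 101 were among the 156. Without the shallow Smarcb1 KO CKI library of BS53965 it gave 311. DESeq2 gave 1548 calls for Arid1a KO over Braf (165), 611 for Arid2 KO over Braf (0), 683 under CKI (4) and 615 for the change with CKI (47), and no filter gave 12 under CKI. Leaving out each of the 12 lines in turn gave 11 to 225, 3 to 912, 0 to 113, 0 to 33 and 8 to 77 calls in these 5 tests, in the order vehicle, over Braf for Arid1a KO and for Arid2 KO, CKI, and change with CKI. Outside the vehicle comparison, the fits without lines of groups that a test does not compare, and the block without BS53965, were added after seeing the data. The cause was not tested.

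The 35 named called genes kept their call in 446 of 700 gene and setting pairs, lost it in 254 and reversed in 0; with the replicate block 14 kept it. Reversals fell among genes that were not called. With the replicate block the log2 changes of Smarca2 and Myh1 were 0.057 and 0.10, and 0.056 and 0.093 without that library. With a line left out, the lowest and highest log2 changes were -0.71 and 0.38 for Smarca2, -4.06 and 3.17 for Myh1, -0.17 and 5.26 for Isg15 and -11.15 and 0.62 for Xist. They were -0.41 and 0.13 for Ss18l1, -0.47 and 0.051 for Bcl7a, -0.057 and 0.21 for Bcl7c, -0.028 and 0.066 for Gltscr1 and -0.019 and 0.080 for Smarce1. Genes with few counts in a group are limited by depth: the size of their change is not resolved.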
